A study of Mus musculus with 24 samples.

Results

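The 46 genes described here encode the machinery of DNA replication and its S phase supply. They were taken by name from the probe annotation of a mouse liver expression array, and 43 of the 46 could be tested among 22088 tested genes in all. Liver RNA came from 24 female mice of the strain sv129/C57, aged 8 weeks, with 1 array per mouse and 6 mice in each of 4 groups. Wild type (WT) mice and mice lacking both liver X receptors, LXRα and LXRβ (KO), received either water (WT control, KO control) or fumonisin B1 (WT FB1, KO FB1) at a daily dose of 10 mg per kg of body weight over 1 month. Fumonisin B1 is a fungal toxin that blocks ceramide synthases, and LXRα and LXRβ are nuclear receptors that respond to oxysterols. The labels do not say in which cells the receptor genes were deleted, how FB1 was given or whether WT and KO mice were littermates. The arrays were made from whole liver, in which fewer cells of a type and less RNA per cell cannot be told apart.

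Replication begins when the origin recognition complex, Cdc6 and Cdt1 load the Mcm2-7 helicase on DNA in G1. Cdc45 and the GINS complex then turn the loaded helicase on, polymerases and their sliding clamp copy the strands, and Fen1 and Lig1 join the lagging-strand fragments. Many of these genes are transcribed together at the G1/S transition by E2F factors, and most hepatocytes of a healthy adult liver are quiescent.

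Promoter sequence was searched for words that E2F factors are known to bind. RefSeq promoter windows (build GRCm38.p6), each from 250 bases before to 50 bases after an annotated start, matched 38 of the 46 genes by symbol. The words TTTGGCGC, TTTCGCGC, TTTCCCGC and TTTGCCGC were searched on both strands, and 15 of the 38 genes (39.5%) held at least 1 of them, against 704 of all 27025 genes with a window (2.6%). Of the genes with a window that FB1 raised in KO mice, 12 of 27 held a word, and of the tested genes with a window that it did not raise there, 1 of 9. Of those it raised in WT mice, 4 of 10 held a word (40%), near the 39.5% of all 38 genes. Whether a word goes with the response to FB1 was not tested. The windows of 31 mitosis genes held a word in 1 case. The word CCAAT, which the factor NF-Y binds, stood in 25 of the 38 windowed genes (65.8%) and in 41.1% of all genes. The word TTTGAA, the core of the cell cycle homology region of late cell cycle genes, stood in 6 of the 38 (15.8%), in 22 of the 31 mitosis genes (71%) and in 20.2% of all genes. A match is a string of letters and not a site shown to be bound, and some words overlap each other.

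The stretches below show the words in genes that differ in their response, in capitals within the gene's own strand from 5′ to 3′. Mcm5 (chr8:75109339-75109399, plus strand) and Mcm6 (chr1:128359735-128359825, minus strand) each carry a pair of overlapping words on opposite strands, Mcm6 carries a further word nearer its start, and both genes rose with FB1 in both genotypes. Uhrf1, which rose in both genotypes, and Cdc6 and Pola1, which rose in KO mice, carry 1 word each. Gins3 carries 1 word and was not called in either genotype, and Orc1 carries 1 word and was too dim to test.
Mcm5: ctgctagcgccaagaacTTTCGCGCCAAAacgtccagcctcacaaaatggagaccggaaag
Mcm6: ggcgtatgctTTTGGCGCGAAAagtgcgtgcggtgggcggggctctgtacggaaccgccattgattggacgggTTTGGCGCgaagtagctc
Uhrf1: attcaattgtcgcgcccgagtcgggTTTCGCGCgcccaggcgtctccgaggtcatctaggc
Cdc6: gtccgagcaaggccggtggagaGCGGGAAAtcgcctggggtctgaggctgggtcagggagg
Pola1: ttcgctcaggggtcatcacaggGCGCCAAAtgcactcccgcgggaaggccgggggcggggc
Gins3: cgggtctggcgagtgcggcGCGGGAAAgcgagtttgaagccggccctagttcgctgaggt
Orc1: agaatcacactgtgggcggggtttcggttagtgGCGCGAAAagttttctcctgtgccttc
The last 5 stretches lie at chr17:56304103-56304163 (plus strand), chr11:98907991-98908051 (plus), chrX:93632255-93632315 (minus), chr8:95633499-95633558 (plus) and chr4:108579394-108579453 (plus). None of the 4 words was found in the windows of Tk1, Pcna or Mcm10, which says only that these letters are not there.

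**Figure D1:**
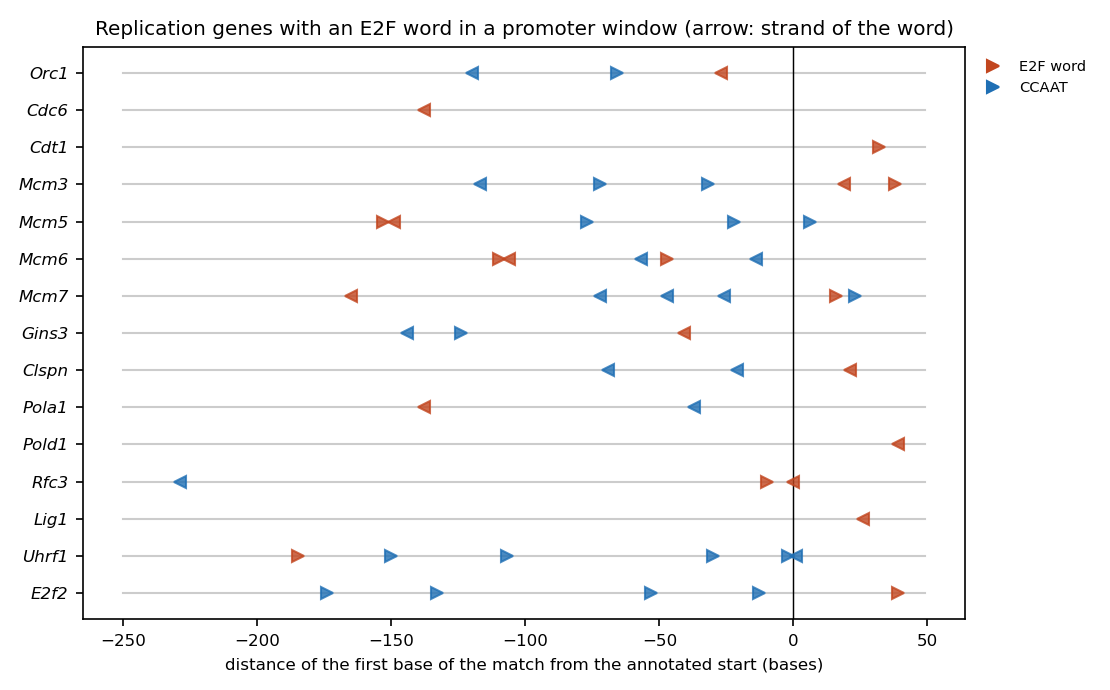
Position of E2F words (orange) and CCAAT (blue) in the promoter windows of the 15 replication genes that held an E2F word, as the distance in bases of the match's first base from the annotated start; arrowheads give the strand, and a gene with more than 1 window has all its matches on 1 line. In Mcm5 and Mcm6 a pair of words on opposite strands overlaps.

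A level is given as log2 of the probe's signal minus log2 of the array's 75th percentile, so that 0 is a signal at that percentile, and levels of different genes are not compared. The 75th percentile ran from 490 to 685 intensity units over the arrays, and 58.7% to 64.5% of spots were well above background. All 43 tested genes were well above background on all 24 arrays. Orc1 was so on at most 5 of 6 arrays of any group, Clspn on at most 3 and Ccne2 on at most 1, and these 3 were not tested. Nr1h3, which encodes LXRα, lay at 4.71 to 5.06 in WT mice and at -5.13 to -2.56 in KO mice, and Nr1h2, which encodes LXRβ, at 4.02 to 4.34 and at 0.31 to 0.80, so every array carried its labelled genotype. The 10 hepatocyte markers, among them Alb and Ttr, were well above background on every array. Of the libraries, KO FB1 replicate 5 was the lowest of its group for 35 of the 43 genes, and WT control replicate 6 the highest of its group for 32. Counts that moved without these 2 arrays are given with and without them.

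FB1 was followed by higher levels of most of the tested replication genes in KO mice and of a smaller number in WT mice. In WT mice 12 of the 43 tested genes were called higher and 0 lower by limma at an adjusted p under 0.05, where 2.06% of all tested genes were called higher and 0.824% lower. In KO mice 32 were called higher and 2 lower, where 16.5% and 24.6% of all tested genes were. The 12 genes called in WT mice were all among the 32 called in KO mice, 20 were called higher and 2 lower in KO mice alone, and 9 were called in neither genotype. Over all 22088 tested genes, 390 of the 456 called higher in WT mice were also called higher in KO mice, and 12869 were called in neither. Such nesting was thus common among all genes. The median log2 difference of the 43 genes was 0.40 in WT and 0.66 in KO mice, beside -0.03 and -0.08 over all tested genes. Levels of treated and control mice did not overlap for 7 genes that were higher and 1 that was lower in WT mice (1.29% and 1.03% of all tested genes) and for 14 and 2 in KO mice (8.89% and 9.48%). A call in KO mice alone is not a difference between the genotypes, which is tested further on. Without WT control replicate 6, 19 genes were called higher in WT mice, the added ones being Chaf1a, E2f8, Fen1, Lig1, Prim1, Rfc4 and Tyms, and without both that array and KO FB1 replicate 5 there were 22. In KO mice the count was 33 without either KO FB1 replicate 5 or both arrays.

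**Figure D2:**
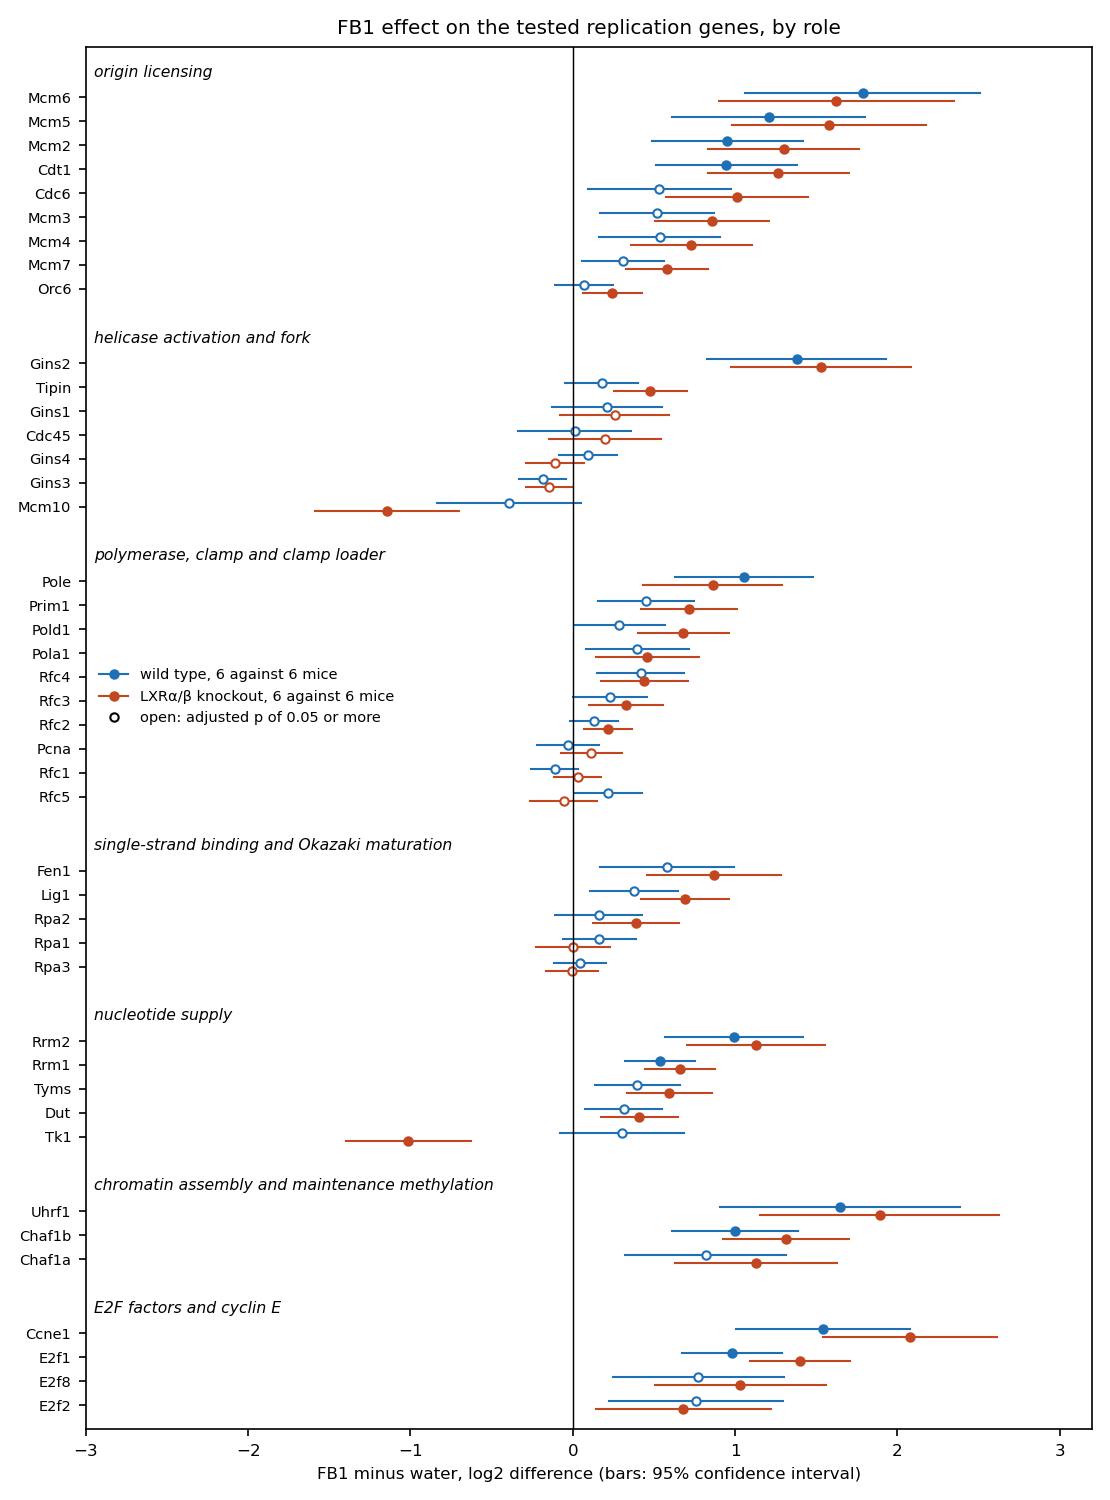
Log2 difference between FB1 and water for the 43 tested genes, in wild type (blue) and LXRα/β knockout mice (orange), grouped by role; bars are 95% confidence intervals and filled points were called at an adjusted p under 0.05. Most points lie right of 0 in both genotypes, while Mcm10 and Tk1 lie left of it in knockout mice.

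The origin licensing genes moved in 1 direction. All 9 tested members rose in KO mice, with a median of 1.01 on the log2 scale, and 4 of them, Mcm6, Mcm5, Mcm2 and Cdt1, rose in WT mice. Mcm6, a subunit of the helicase ring, lay at -1.31 to 1.72 (median -0.07) in WT control and at 1.03 to 2.64 (median 1.78) in WT FB1 mice, a rise of 1.79 ± 0.35 (SE) or 3.45-fold (adjusted p = 0.0044). In KO mice it lay at 1.29 to 1.84 (median 1.497) in controls and at 2.16 to 3.57 (median 3.31) after FB1, a rise of 1.62 ± 0.35 (adjusted p = 0.000805). Only WT control replicate 6 reached into the range of the treated WT mice, and the KO groups were apart. A second, dim Mcm6 probe was well above background on 1 and 4 arrays of WT control and WT FB1 mice. In the corresponding KO groups it was so on 2 and 6, so the size of its differences is uncertain. On this probe the FB1 differences were 1.61 in WT mice (adjusted p = 0.0149) and 1.63 in KO mice (adjusted p = 0.00118). The probe could be tested only because it was well above background on every array of KO FB1 mice, its highest group. Its calls are therefore not separate support for the rise. On the authors' own values, where only that second probe had a value, the difference in WT mice was 0.38 (adjusted p = 0.0775). With only the WT groups in the fit, the WT calls of Mcm6 (adjusted p = 0.0575), Mcm5 (0.0836) and Uhrf1 (0.0765) were lost.

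Mcm5, another ring subunit, lay at -2.08 to 0.01 (median -1.63) in WT control and at -0.75 to 0.36 (median -0.21) in WT FB1 mice, a rise of 1.21 ± 0.29 (adjusted p = 0.0206). Its KO values were -1.40 to -0.70 (median -1.21) and -0.57 to 0.90 (median 0.56), a rise of 1.58 ± 0.29 or 2.99-fold (adjusted p = 0.000163). The KO groups did not overlap even though KO FB1 replicate 5, at -0.57, stood apart from the next treated mouse at 0.55. Mcm2, also of the ring, lay at -3.06 to -1.91 (median -2.72) and at -2.05 to -1.06 (median -1.56) in WT mice, and at -2.78 to -1.92 (median -2.25) and -1.56 to -0.33 (median -1.06) in KO mice. Its rises were 0.95 ± 0.22 (adjusted p = 0.0187) and 1.30 ± 0.22 (adjusted p = 9.12e-05). The WT calls of Mcm5 and Mcm2 lay near the threshold. Mcm5 lost its call without WT control replicate 3 (adjusted p = 0.0531), WT control replicate 4 (0.0592) or WT FB1 replicate 1 (0.0631). Mcm2 lost it without WT control replicate 4 (0.0549) or WT FB1 replicate 1 (0.0597). In these fits the WT differences were at least 1.06 for Mcm5 and 0.845 for Mcm2.

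Cdt1, the loading factor, rose by 0.95 ± 0.21 in WT mice (adjusted p = 0.0116) and by 1.27 ± 0.21 in KO mice (adjusted p = 5.72e-05), and treated and control mice were apart in both genotypes. Cdc6, its ATPase partner, rose 2.02-fold in KO mice (1.01 ± 0.21, adjusted p = 0.000624), without overlap, and differed by 0.53 in WT mice (adjusted p = 0.182). The remaining ring subunits rose in KO mice by 0.86 (Mcm3), 0.73 (Mcm4) and 0.58 (Mcm7), and had differences of 0.52, 0.54 and 0.31 in WT mice that did not pass. Orc6, the smallest subunit of the origin recognition complex, had the least change of the group, 0.24 ± 0.09 in KO mice (adjusted p = 0.028). That call was lost without any 1 of KO control replicates 1, 2 and 5 or KO FB1 replicates 1, 2 and 6, with adjusted p from 0.0559 to 0.068.

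Among the genes of helicase activation and the fork, 2 rose in KO mice, 1 of them also in WT mice, and 1 fell. Gins2, a subunit of the 4-part GINS complex, lay at -3.35 to -1.39 (median -2.504) in WT control and at -1.96 to -0.70 (median -0.88) in WT FB1 mice. It lay at -2.499 to -2.17 (median -2.31) in KO control and at -1.66 to -0.39 (median -0.67) in KO FB1 mice. The rises were 1.38 ± 0.27 (adjusted p = 0.00383) and 1.53 ± 0.27 (adjusted p = 0.000101), and the KO groups did not overlap. The other subunits did not pass in either genotype. Gins1 lay at -1.001 to -0.14 and -0.83 to -0.13 in WT control and FB1 mice, and at -1.08 to -0.69 and -1.34 to -0.21 in KO mice, with differences of 0.21 and 0.26. Gins3 lay at 2.14 to 2.34 and 1.97 to 2.13 in WT mice, which did not overlap although the difference of -0.18 did not pass (adjusted p = 0.163), and at 1.89 to 2.31 and 1.73 to 2.12 in KO mice (-0.15). Gins4 lay at 0.25 to 0.73 and 0.56 to 0.76 in WT mice and at 0.51 to 0.85 and 0.31 to 0.77 in KO mice, with differences of 0.09 and -0.11. So within 1 complex the differences in KO mice ran from 1.53 for Gins2 to -0.15 for Gins3. Without KO FB1 replicate 5, Gins1 passed in KO mice at 0.40 (adjusted p = 0.0311). Gins3 passed as lower there without KO control replicate 4 (-0.19, adjusted p = 0.0381) or KO FB1 replicate 3 (-0.18, adjusted p = 0.0431).

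Cdc45, which joins the GINS complex on the helicase, lay at -5.16 to -4.48 and -5.10 to -4.43 in WT mice and at -5.44 to -4.28 and -5.08 to -4.18 in KO mice. Its differences of 0.01 and 0.20 did not pass. A second probe was well above background on 5, 6, 3 and 6 arrays in the order of the groups above. It differed by 0.95 in KO mice (adjusted p = 0.00587) and by 0.42 in WT mice (adjusted p = 0.422). This probe could be tested only through the FB1 groups, where its mean was higher, so its call is not separate support for a rise. With the mean of the gene's probes, which includes that second probe, Cdc45 was called higher in KO mice, at 0.57 (adjusted p = 0.0145). The Cdc45 probes thus gave different calls in KO mice. Tipin, a partner of Timeless that steadies the fork, rose by 0.48 ± 0.11 in KO mice without overlap (adjusted p = 0.00119) and differed by 0.18 in WT mice.

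Mcm10, which helps to start the helicase and recruits polymerase alpha, went the other way. It lay at 2.52 to 3.59 (median 2.84) in WT control and at 1.66 to 2.98 (median 2.59) in WT FB1 mice, and at 3.14 to 3.802 (median 3.27) in KO control and at 1.77 to 2.68 (median 2.24) in KO FB1 mice. The KO groups were apart, with a fall by 1.14 ± 0.21 on the log2 scale, 2.21-fold (adjusted p = 0.000217), and the WT difference of -0.39 did not pass. This rests on 1 probe: a second Mcm10 probe, made against another transcript model, had differences of 0.10 and -0.15 in WT and KO mice that did not pass.

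**Figure D3:**
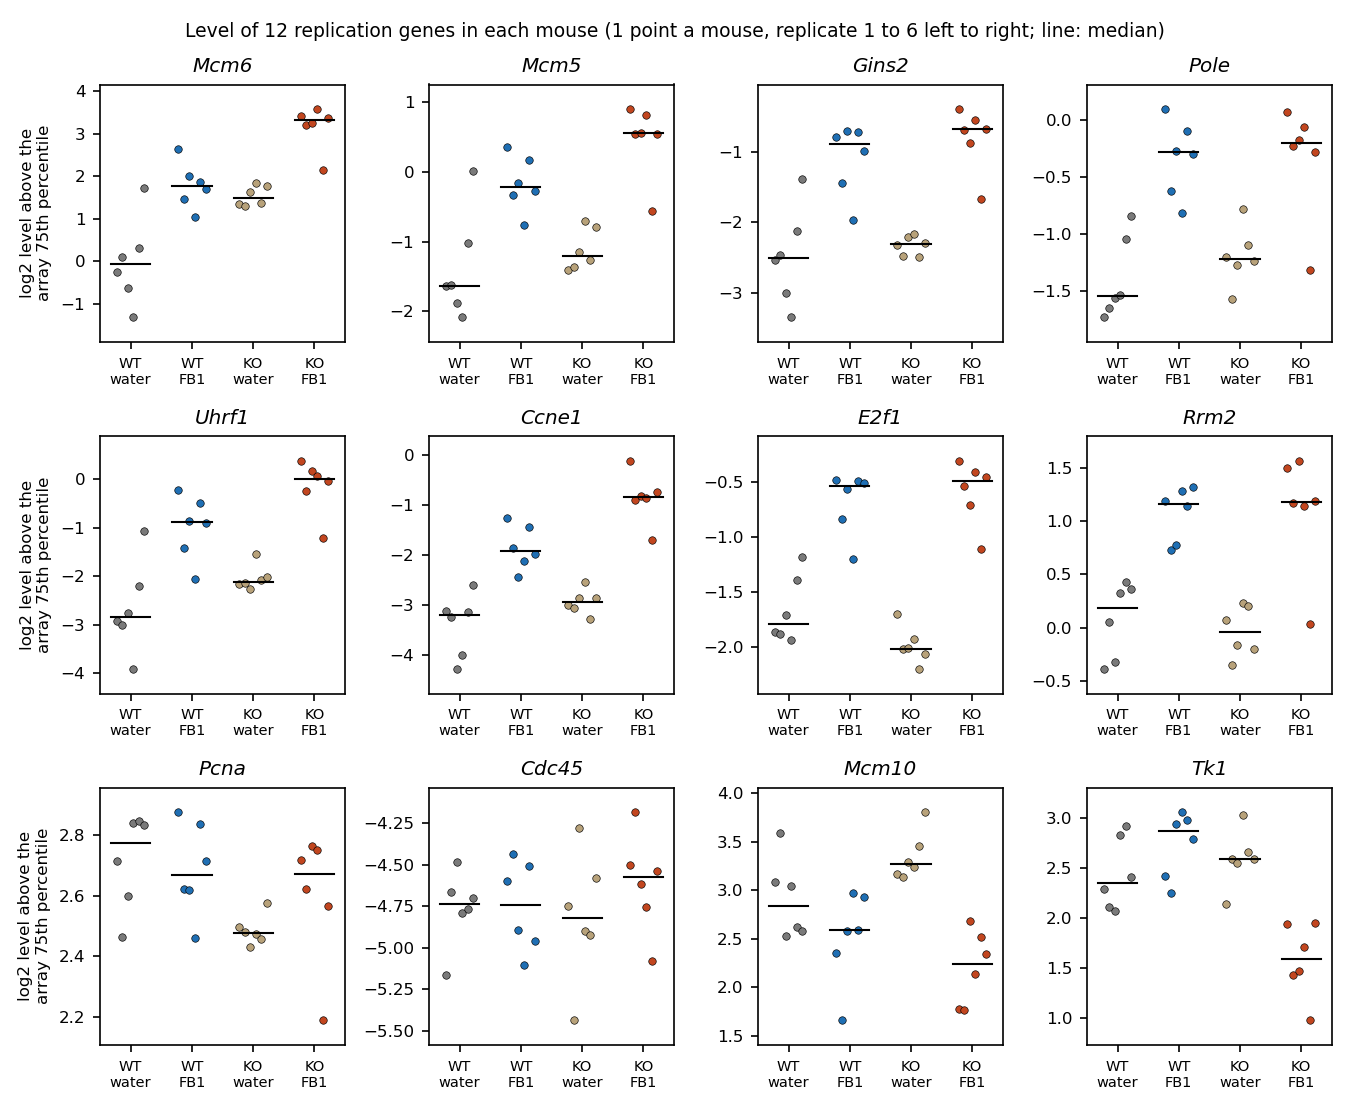
Log2 level of 12 replication genes in each of the 24 mice, relative to the array's 75th percentile, with a line at the group median; points run from replicate 1 to 6. The single treated KO mouse near the control range for Mcm5, Pole and Rrm2 is replicate 5, and the treated KO mice have the lowest group median for Mcm10 and Tk1.

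Of the 10 polymerase, clamp and clamp loader genes, 7 rose in KO mice and 1 in WT mice. Pole, the catalytic subunit of the leading-strand polymerase, lay at -1.73 to -0.84 (median -1.55) in WT control and at -0.82 to 0.09 (median -0.28) in WT FB1 mice, which did not overlap (1.06 ± 0.21, adjusted p = 0.00423). In KO mice it lay at -1.57 to -0.78 (median -1.22) and at -1.32 to 0.07 (median -0.20), a rise of 0.86 ± 0.21 (adjusted p = 0.00198) with overlap through replicate 5 alone. The primase subunit Prim1 rose by 0.72 in KO mice, the delta polymerase gene Pold1 by 0.68 and the alpha polymerase gene Pola1 by 0.46. The clamp loader genes Rfc4, Rfc3 and Rfc2 rose there by 0.44, 0.33 and 0.22. In WT mice these 6 had differences of 0.13 to 0.45 that did not pass. Pola1 lost its call without KO control replicate 6 (adjusted p = 0.0527) or KO FB1 replicate 2 (0.051), and Rfc3 without KO FB1 replicate 1 (0.0608). Further tested probes of 3 genes did not pass in KO mice, at 0.29 for Pola1 (adjusted p = 0.0611), 0.20 for Rfc3 (0.163) and 0.57 for Pole (0.0693). That Pole probe did pass in WT mice, at 0.94 (adjusted p = 0.0382). Both further Rfc4 probes rose in KO mice, by 0.46 (adjusted p = 0.00372) and 0.60 (adjusted p = 0.0064).

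Pcna, the sliding clamp itself and a common marker of proliferation, was not called. It lay at 2.46 to 2.85 (median 2.77) in WT control, 2.46 to 2.87 (median 2.67) in WT FB1, 2.43 to 2.57 (median 2.48) in KO control and 2.19 to 2.76 (median 2.67) in KO FB1 mice. The groups overlapped in both genotypes and the differences were -0.03 ± 0.09 and 0.12 ± 0.09. On the authors' own values the KO difference was 0.26 (adjusted p = 0.0335). Rfc1, the largest clamp loader subunit, lay at 1.44 to 1.78 and 1.33 to 1.69 in WT mice and at 1.45 to 1.72 and 1.46 to 1.69 in KO mice. Rfc5 lay at 1.97 to 2.25 and 1.99 to 2.497 in WT mice and at 2.09 to 2.25 and 1.64 to 2.34 in KO mice. Neither passed in either genotype, with differences of -0.11 and 0.03 for Rfc1 and of 0.22 and -0.06 for Rfc5.

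Replication protein A coats single-stranded DNA, and of its subunit genes, on the probes used, only Rpa2 was called, in KO mice (0.39 ± 0.13, adjusted p = 0.0184). The Rpa2 call was lost without KO FB1 replicate 1 (adjusted p = 0.0538) or replicate 4 (0.0508). Rpa1 lay at 2.69 to 3.09 and 2.87 to 3.23 in WT mice and at 2.45 to 2.97 and 2.30 to 2.99 in KO mice, with FB1 differences of 0.164 and 0.0014. A second Rpa1 probe, well above background on all arrays, differed by -0.0062 in WT mice and fell by 0.32 in KO mice (adjusted p = 0.0231), so the Rpa1 probes gave different calls. Rpa3 lay at 1.36 to 1.90 and 1.61 to 1.89 in WT mice and at 1.63 to 1.83 and 1.58 to 1.79 in KO mice, with differences of 0.0435 and -0.0023. The flap endonuclease gene Fen1 and the ligase gene Lig1, which act in turn on Okazaki fragments, rose in KO mice by 0.87 ± 0.20 (adjusted p = 0.00136) and 0.69 ± 0.13 (adjusted p = 0.00023). Their WT differences of 0.58 and 0.38 did not pass.

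Of the 5 nucleotide supply genes, 4 rose and 1 fell in KO mice, and 2 rose in WT mice. Rrm2, the regulatory subunit of ribonucleotide reductase, lay at -0.38 to 0.42 (median 0.19) in WT control and at 0.73 to 1.32 (median 1.16) in WT FB1 mice, without overlap (0.996 ± 0.205, adjusted p = 0.00645). It lay at -0.35 to 0.23 (median -0.05) in KO control and at 0.03 to 1.56 (median 1.18) in KO FB1 mice (1.13 ± 0.21, adjusted p = 0.000154), where replicate 5 was again the one low mouse. Its large subunit Rrm1 lay at -0.58 to 0.00 (median -0.29) and 0.02 to 0.43 (median 0.19) in WT mice and at -0.16 to 0.22 (median -0.01) and 0.34 to 0.90 (median 0.72) in KO mice. Rrm1 was apart in both genotypes, with rises of 0.54 ± 0.10 (adjusted p = 0.0039) and 0.66 ± 0.10 (adjusted p = 3.22e-05). Thymidylate synthase (Tyms) rose by 0.60 and dUTPase (Dut) by 0.41 in KO mice, with WT differences of 0.40 and 0.32 that did not pass. One further Tyms probe of 2 rose in WT mice as well, by 0.50 (adjusted p = 0.0147), while the other differed by 0.34 there (adjusted p = 0.118), and both rose in KO mice, by 0.63 and 0.55. A second Dut probe rose in both genotypes, by 0.74 in WT mice (adjusted p = 0.0114) and by 0.68 in KO mice (adjusted p = 0.00187).

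Tk1, cytosolic thymidine kinase, salvages thymidine for DNA synthesis and is usually classed with the S phase genes. It lay at 2.07 to 2.91 (median 2.34) in WT control, 2.25 to 3.05 (median 2.86) in WT FB1, 2.14 to 3.03 (median 2.59) in KO control and 0.98 to 1.95 (median 1.59) in KO FB1 mice. The 6 treated KO mice all lay below every other mouse. Tk1 fell by 1.01 ± 0.19 on the log2 scale in KO mice, 2.02-fold (adjusted p = 0.000173), while its difference in WT mice was 0.30 ± 0.19 (adjusted p = 0.406). The 2 further tested probes of Tk1 fell in KO mice by 0.92 and 1.01 (adjusted p = 0.000219 and 9.96e-05).

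The 3 chromatin genes all rose in KO mice, and Uhrf1 and Chaf1b rose in WT mice too. Uhrf1, which guides maintenance DNA methylation behind the fork, lay at -3.90 to -1.08 (median -2.84) in WT control and at -2.05 to -0.22 (median -0.88) in WT FB1 mice. In KO mice it lay at -2.27 to -1.54 (median -2.11) and at -1.21 to 0.37 (median 0.01), without overlap. Its rises were 1.65 ± 0.36 (adjusted p = 0.0097) and 1.89 ± 0.36 (adjusted p = 0.000221), or 3.13-fold and 3.71-fold. Chaf1b, a subunit of the histone chaperone that follows the fork, lay at -0.96 to 0.00 (median -0.64) and 0.13 to 0.84 (median 0.51) in WT mice and at -1.18 to -0.54 (median -0.85) and -0.20 to 0.64 (median 0.62) in KO mice. It was apart in both genotypes (1.002 ± 0.187, adjusted p = 0.00294, and 1.31 ± 0.19, adjusted p = 1.1e-05). The largest subunit, Chaf1a, rose by 1.13 in KO mice (adjusted p = 0.000712) and differed by 0.82 in WT mice (adjusted p = 0.0677).

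Cyclin E and the E2F factors drive entry into S phase, and all 4 tested members rose in KO mice. Ccne1, the cyclin that activates Cdk2 at the G1/S transition, had the largest rise of the 43 genes in KO mice. It lay at -4.28 to -2.61 (median -3.20) in WT control and at -2.45 to -1.28 (median -1.93) in WT FB1 mice, and at -3.29 to -2.55 (median -2.94) and -1.70 to -0.13 (median -0.85) in KO mice. Treated and control mice were apart in both genotypes, with rises of 1.54 ± 0.26 or 2.91-fold (adjusted p = 0.00124) and 2.08 ± 0.26 or 4.22-fold (adjusted p = 2.24e-06). The activator E2f1 lay at -1.94 to -1.19 (median -1.79) and -1.20 to -0.49 (median -0.54) in WT mice and at -2.20 to -1.70 (median -2.02) and -1.11 to -0.31 (median -0.50) in KO mice. E2f1 rose by 0.98 ± 0.15 (adjusted p = 0.000682) and 1.40 ± 0.15 (adjusted p = 3.96e-07). The KO groups were apart, and in WT mice only the highest control (-1.19) overlapped the lowest treated mouse (-1.20). The repressor E2f8 and the activator E2f2 rose in KO mice by 1.03 and 0.68, and differed by 0.77 and 0.76 in WT mice (adjusted p = 0.104 and 0.117). A second, dim E2f8 probe differed by 1.17 in WT mice (adjusted p = 0.0491) and by 0.53 in KO mice (adjusted p = 0.198). It could be tested only through WT FB1 mice, its highest group. With the mean of the gene's probes, E2f8 was called higher in WT mice, at 0.97 (adjusted p = 0.047). E2f2 lost its call without any 1 of KO control replicates 2, 4, 5 and 6 or KO FB1 replicates 1, 2, 4 and 6, with adjusted p from 0.05 to 0.1. A second E2f2 probe differed by 0.69 in KO mice (adjusted p = 0.0662).

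Between genotypes without FB1 these genes were called at shares near those of all tested genes. Of the 43, 3 were called higher and 2 lower in KO than in WT control mice, where 7.21% and 8.02% of all tested genes were, and the median difference was 0.06 beside 0.01 over all genes. The groups did not overlap for 1 gene higher and 1 lower (3.61% and 4.32% of all tested genes). Mcm3 was the gene apart, at -0.24 to 0.52 (median 0.05) in WT control and at 1.12 to 1.60 (median 1.25) in KO control mice, a difference of 1.15 ± 0.17 or 2.22-fold (adjusted p = 2.48e-05). Mcm6 was higher in KO controls by 1.54 ± 0.35 (adjusted p = 0.00329), with WT control replicate 6 inside the KO range. The dim second Mcm6 probe differed by 1.09 there (adjusted p = 0.0473), but was well above background on only 1 WT control and 2 KO control arrays. It was tested only through KO FB1 mice, so this is not separate support. On the authors' own values, which hold only that second probe, the difference was 0.23 (adjusted p = 0.188). Rrm1 was higher by 0.33 ± 0.10 (adjusted p = 0.0326). Orc6 lay at 0.65 to 0.89 (median 0.74) in WT control and at 0.36 to 0.64 (median 0.50) in KO control mice, lower by 0.26 without overlap (adjusted p = 0.0438). E2f8 lay at -2.74 to -0.92 (median -1.73) and at -3.24 to -2.14 (median -2.72), lower by 0.81 (adjusted p = 0.0315), and not called with the mean of the gene's probes (-0.56, adjusted p = 0.173). Mcm3 and Mcm6 kept their calls without each array in turn, while the other 3 did not. Rrm1 lost its call without any 1 of WT control replicates 2 and 4 or KO control replicates 2, 4 and 6 (adjusted p from 0.0546 to 0.0799). E2f8 lost it without any 1 of WT control replicates 1, 5 and 6 or KO control replicates 1, 2, 3 and 5 (0.0523 to 0.0887). Orc6 lost it without any 1 of 13 arrays, namely WT control replicates 1, 3, 4, 5 and 6, WT FB1 replicates 2, 3 and 6, KO control replicates 1, 2, 3 and 5 and KO FB1 replicate 4 (0.05 to 0.103).

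The probes of Mcm3 differed in the size of its genotype difference. The probe used, at chr1:20793159-20793218 of build mm9, and one that overlaps it, at chr1:20793119-20793178, gave 1.15 and 1.15 between the control groups. Another probe at chr1:20793265-20793324 gave 0.22 (adjusted p = 0.506) and the last, at chr1:20795363-20795879, gave 0.43 (adjusted p = 0.108). All 4 probes rose with FB1 in KO mice, by 0.79 to 0.88, and the last also in WT mice, by 0.73 (adjusted p = 0.0224). Between the control groups the difference was thus called on 2 of the 4 probes. Under FB1 all 4 were called higher in KO than in WT mice, at 1.49, 1.35, 0.55 (adjusted p = 0.0244) and 0.50 (adjusted p = 0.0313) in the same order.

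**Figure D4:**
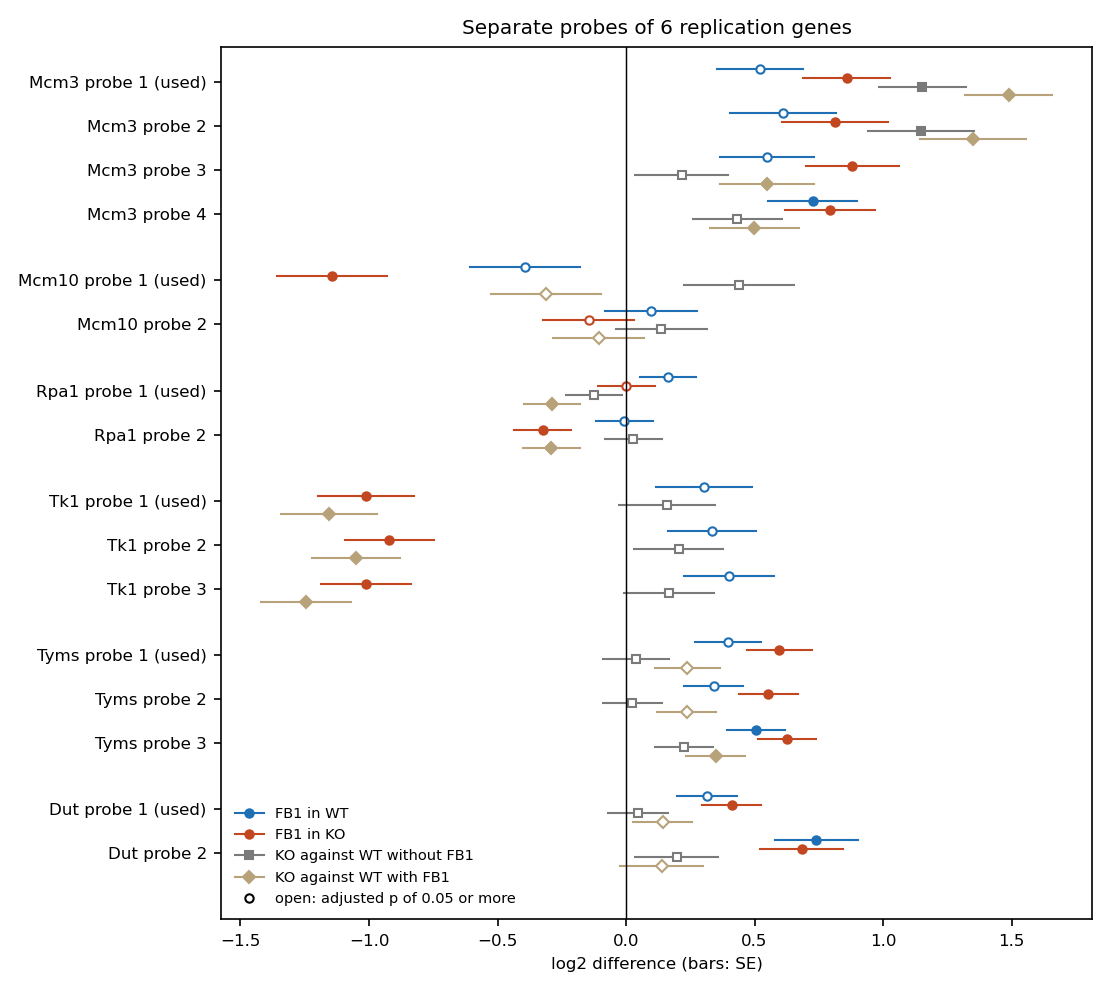
Log2 difference with its SE for each probe of Mcm3, Mcm10, Rpa1, Tk1, Tyms and Dut that was well above background on all 24 arrays, under FB1 in WT (blue), FB1 in KO (orange), KO against WT without FB1 (grey squares) and with FB1 (tan diamonds); filled symbols were called at an adjusted p under 0.05. The 3 Tk1 probes lie together, while the Mcm3 probes range from 0.50 to 1.49 for KO against WT with FB1 and 1 of the 2 Mcm10 probes lies near 0.

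Under FB1, 10 of the 43 genes were called higher in KO than in WT mice and 2 lower, where 14.5% and 18.3% of all tested genes were, and the groups did not overlap for 1 gene higher (Mcm3) and 1 lower (Tk1), beside 7.06% and 8.13% of all tested genes. The median difference was 0.15, beside -0.03 over all genes. This comparison shares its treated mice with the FB1 comparisons. Mcm3 was higher by 1.49 on the probe used and by 0.50 to 1.35 on its others, Mcm6 by 1.38, Ccne1 by 0.99, Pold1 by 0.47 and Rrm1 by 0.46, with adjusted p from 3.92e-07 to 0.0102, and these 5 kept their calls without each array in turn. Tk1 was lower by 1.16 ± 0.19 (adjusted p = 4.17e-05) and kept its call likewise. Cdc6 (0.58), Fen1 (0.56), Rpa2 (0.35), Lig1 (0.35) and Tipin (0.34) were also higher and Rpa1 lower by 0.29, but each of these 6 lost its call without some single arrays. Cdc6 and Fen1 lost it without any 1 of WT FB1 replicates 2, 4 and 6 and KO FB1 replicates 1, 4 and 6, Cdc6 also without KO FB1 replicate 3 and Fen1 also without KO FB1 replicate 2 (adjusted p from 0.0551 to 0.109). Rpa2 and Lig1 lost it without any 1 of WT FB1 replicates 2, 3, 4 and 6 and KO FB1 replicates 1, 3, 4 and 6, and Lig1 also without KO control replicate 1 or 3 or KO FB1 replicate 2 (0.0504 to 0.125). Tipin lost it without WT FB1 replicate 6 (0.0573) or KO FB1 replicate 2 (0.0528). Rpa1 lost it without any 1 of 14 arrays, namely WT control replicates 1 and 3, WT FB1 replicates 1, 3, 4, 5 and 6, KO control replicates 2, 3 and 5 and KO FB1 replicates 1, 2, 5 and 6 (0.0511 to 0.13). The count of genes called higher was 20 without KO FB1 replicate 5 and 16 without WT FB1 replicate 1. It was 6 without WT FB1 replicate 4 or without KO FB1 replicate 1, 4 or 6, and 5 without WT FB1 replicate 6.

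The size of the FB1 effect differed between genotypes for 1 of the 43 genes. Tk1 had a difference of effects of -1.32 ± 0.26 (adjusted p = 0.00389), and the other tested Tk1 probes gave -1.26 and -1.41. Of all tested genes 4.46% were called with a higher and 4.84% with a lower effect in KO mice, and none of the 43 was called with a higher effect. The difference was above 0 for 34 of the 43 genes, with a median of 0.18 and a largest value of 0.54 ± 0.37 for Ccne1 (adjusted p = 0.39, 95% interval from -0.22 to 1.29). Over all tested genes the difference was above 0 for 9655 of 22088, with a median of -0.04. For Mcm10 it was -0.75 ± 0.30 (adjusted p = 0.123), and -0.92 without WT FB1 replicate 2 (adjusted p = 0.0382).

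The median over the 43 genes, taken in each mouse as the deviation from each gene's mean over all arrays, was -0.45 to 0.11 in WT control, -0.13 to 0.34 in WT FB1, -0.34 to -0.11 in KO control and -0.11 to 0.61 in KO FB1 mice. WT control replicate 6 (0.11) and KO FB1 replicate 5 (-0.11) lay towards the other treatment, as did WT FB1 replicate 4 (-0.13), the lowest of its group for 25 of the 43 genes. The arrays lay on 3 slides with 2 mice of each group on each. Within slides the median FB1 difference of the 43 genes was 0.53, 0.57 and 0.07 in WT mice and 0.51, 0.60 and 0.74 in KO mice. The slide with the small WT difference held both WT control replicate 6 and WT FB1 replicate 4. The median difference of effects was -0.06, -0.01 and 0.64, so its sign was not the same on the slides, and for KO against WT with FB1 the medians were -0.06, 0.14 and 0.46. Every one of the 12 WT and 34 KO calls under FB1 had the same direction on all 3 slides, while Cdc6 and Rpa2, called higher in KO than in WT mice under FB1, were lower on 1 slide. The calls came from these same arrays, so a shared direction is no independent check of them.

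**Figure D5:**
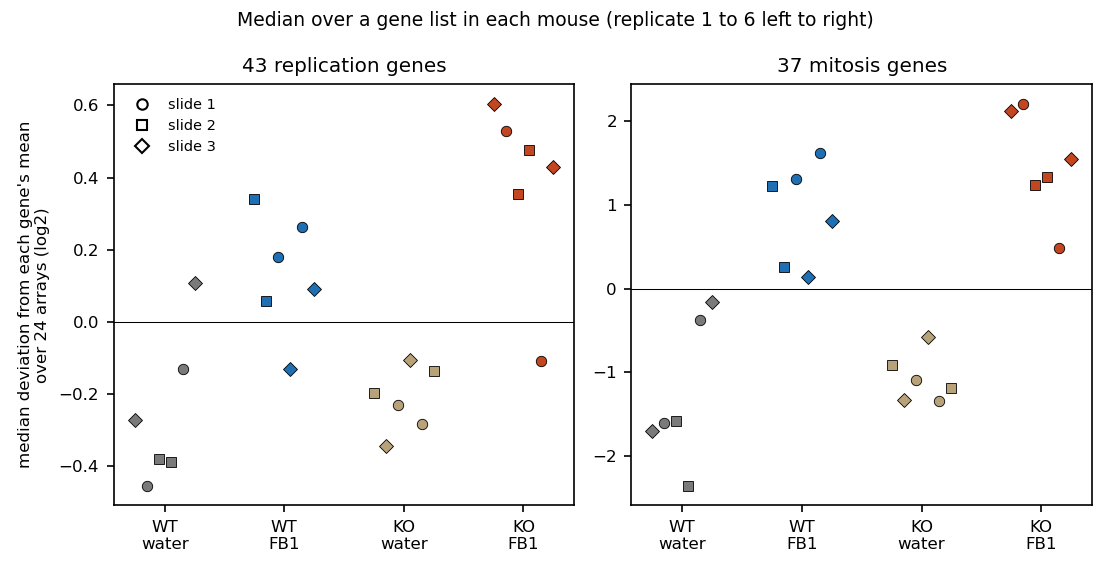
Median over the 43 replication genes (left) and over 37 mitosis genes (right) in each mouse, as log2 deviation from each gene's mean over the 24 arrays; symbols mark the 3 slides. WT control replicate 6, WT FB1 replicate 4 and KO FB1 replicate 5 stand towards the other treatment in the left panel, and the scale of the right panel is several times wider.

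Genes of mitosis had larger median differences in the same mice. Of 37 tested, 34 were called higher in WT mice and 36 in KO mice, with medians of 2.19 and 2.59 beside 0.40 and 0.66 for the replication genes. The mitosis median per mouse was -2.36 to -0.16 in WT control, 0.14 to 1.63 in WT FB1, -1.35 to -0.58 in KO control and 0.49 to 2.21 in KO FB1 mice, without overlap between treated and control mice of a genotype. For these genes 0 were called for the difference of effects. Of 69 other replication genes, 6 rose and 0 fell in WT mice and 28 rose and 7 fell in KO mice, with medians of 0.11 and 0.15. The largest rises in WT mice were those of Dtl (2.07), an adaptor that marks Cdt1 for destruction, the S phase and G2 cyclin Ccna2 (1.98) and the origin firing factor Ticrr (1.95). In KO mice they were Ccna2 (2.44), topoisomerase gene Top2a (2.07) and Dtl (1.89), and the largest falls were Shmt1 (-0.70), which supplies one-carbon units to thymidylate synthesis, the pocket protein Rbl2 (-0.67) and the polymerase epsilon subunit Pole4 (-0.58). The effect of FB1 differed between the genotypes for 4 of the 69, being higher in KO mice for the phosphatase gene Cdc25a (0.72, adjusted p = 0.027) and lower for Tfdp2 (-0.66, adjusted p = 0.0152), Shmt1 (-0.44, adjusted p = 0.0242) and Rnaseh2c (-0.26, adjusted p = 0.044). Of all tested genes 4.46% were called with a higher and 4.84% with a lower effect, and these counts do not exceed those shares.

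One gene of that wider list was called lower in KO controls. Prim2, the large primase subunit and partner of Prim1, lay at -2.00 to -1.40 in WT control and at -5.73 to -4.87 in KO control mice, a difference of -3.58 ± 0.13 or 11.99-fold (adjusted p = 9.01e-16), and of -3.57 under FB1. A second Prim2 probe, made against another transcript model, gave 0.09 (adjusted p = 0.686) and 0.17 (adjusted p = 0.262) in these comparisons. The rest of the 69 held 3 genes called higher in KO controls, Skp2 (0.73), Tfdp2 (0.47) and Rb1 (0.44). Of all tested genes 7.21% were called higher and 8.02% lower in KO controls, and the counts among the 69 do not exceed those shares.

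Markers of liver and blood cells were counted in the same comparisons. Of all tested genes, 2.06% were called higher and 0.824% lower with FB1 in WT mice, and 16.5% and 24.6% in KO mice. Between genotypes, 7.21% were called higher and 8.02% lower in KO mice without FB1, and 14.5% and 18.3% with FB1. Small counts, such as those of T and NK cells and cholangiocytes with FB1 in KO mice, lie near these shares. Of 11 markers of recruited monocytes and macrophages, 5 were called higher with FB1 in WT mice and 9 in KO mice. Their summed signal, in multiples of the 75th percentile, was 59.8 to 113 in WT control, 63.1 to 99.6 in WT FB1, 46.6 to 66.0 in KO control and 115 to 144 in KO FB1 mice. Of 10 stellate cell markers 3 and 7 were called higher, and their sum was 72.3 to 93.3, 90.3 to 111, 86.8 to 107 and 125 to 152 in the same order. Of 6 tested B and plasma cell markers 0 and 5 were called higher, with sums of 1.35 to 2.81, 2.27 to 3.71, 1.53 to 2.53 and 3.03 to 5.65. Of 9 tested erythroid markers 0 were called higher in either genotype and 1 lower in KO mice, and of 10 neutrophil and precursor markers 1 was called higher in WT and 1 higher and 1 lower in KO mice. Hepatocyte markers summed to 3387 to 3792, 3456 to 3888, 3265 to 3972 and 2788 to 3858, with 0 called in WT mice and 4 of 10 lower in KO mice. Of 10 sinusoidal endothelium markers 0 were called in WT mice and 6 lower in KO mice, and of 10 resident macrophage markers 0 were called in WT mice and 2 higher and 2 lower in KO mice. Of 7 tested T and NK cell markers and 8 cholangiocyte markers, 0 were called in WT mice and 1 of each list higher in KO mice. Between genotypes, without and with FB1, resident macrophage markers were called lower in KO mice in 8 and 7 of 10 cases and neutrophil and precursor markers in 4 and 9 of 10. Recruited monocyte and macrophage markers were called higher in KO mice in 6 and 8 of 11 cases and lower in 2 and 1, and stellate cell markers higher in 1 and 6 of 10 and lower in 1 and 2. Sinusoidal endothelium markers were called lower in 1 and 5 of 10 cases and higher in 1 and 0, and hepatocyte markers lower in 0 and 3 of 10. The part of these cells in the replication results was not tested.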

How the data were processed

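Liver RNA of 24 mice was hybridised to 1-colour (Cy3) Agilent arrays, 1 per mouse. The authors deposited the scanner output of each array, whose intensity values were background-subtracted and detrended by Feature Extraction 10.10.1.1 and not scaled between arrays, per the file headers. The deposited value table holds the authors' log2 values of the same arrays, whose processing steps are unstated in the labels and headers; it served as an alternative. From the processed intensity, log2 values minus each array's 75th percentile were computed in R 4.3.3. Spots marked as outliers were set to missing. A probe was tested if it was well above background on every array of at least 1 group with at least 4 values in each group, and a gene was read from its tested probe with the highest mean, named through the RefSeq table (GRCm38.p6) or, failing that, the file. Group means over all 24 arrays were fitted with limma 3.58.1, and 5 comparisons were adjusted (Benjamini-Hochberg) over 22088 genes, with a call at an adjusted p under 0.05. The members, lists, markers and comparisons were chosen with earlier results of these data known. By the rule for named genes, group levels are given for up to 3 members per role called in both genotypes and for every member called lower, never called with FB1 or called for the difference, and 3 other genes per direction. The fit was tested on simulated data. Alternatives covered scaling, background, probe filter and choice, outlier spots, slide and replicate blocks, slides alone, variance model, array weights, fold threshold and each array left out; leaving out WT control replicate 6 and KO FB1 replicate 5 together was chosen after seeing the data. The number of arrays limits the precision.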

Additional observations from a re-analysis of the deposited data

Results flagged for a closer look

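In 176 sets of 6 mice (each of the 43 genes, and their median, in each group), 15 held 1 mouse whose gap to its nearest neighbour was above Dixon's critical value for 6 values, as a share of the range; chance gives about 1 in 20. In 11 of the 15 the mouse was KO FB1 replicate 5, the lowest of its group. Its log2 levels were 0.45 for Orc6, 1.53 for Mcm3, -0.57 for Mcm5, 2.16 for Mcm6, -1.66 for Gins2, -1.32 for Pole, 2.19 for Pcna, 0.031 for Rrm2, -2.61 for Chaf1a and -0.20 for Chaf1b, and its median over the 43 genes was -0.11. The other 4 were WT control replicate 3, lowest for Gins4 (0.25) and Dut (-1.39), WT control replicate 6, highest for Rfc2 (2.87), and KO control replicate 4, highest for Uhrf1 (-1.54).

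The effect of FB1 on Tk1 differed between the genotypes by -1.32 on the log2 scale (adjusted p = 0.00389, limma), with all 6 treated KO mice below every KO control mouse.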

How the results depend on the processing

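Without each array in turn, the genes called higher and lower ranged from 10 to 19 and stayed at 0 for FB1 in WT mice, from 28 to 33 and 2 to 3 for FB1 in KO mice, from 2 to 3 and 0 to 3 for KO against WT without FB1, from 5 to 20 and 1 to 2 with FB1, and 0 and 1 to 2 for the difference of effects. The medians of the 43 genes ranged from 0.36 to 0.47, 0.57 to 0.73, 0.02 to 0.12, 0.12 to 0.24 and 0.10 to 0.28 in the same order. Without WT control replicate 6 and KO FB1 replicate 5 together, 22 genes were higher with FB1 in WT mice, 5 were higher and 0 lower in KO than in WT mice without FB1, and 20 higher and 1 lower with FB1.

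On slides 1, 2 and 3 alone, with 2 mice per group, FB1 calls higher were 0, 1 and 0 in WT mice, with a median of 0.068 on slide 3, and 3, 5 and 19 in KO mice, where 1 and 0 were lower on slides 1 and 2. For KO against WT without FB1 they were 0, 1 and 1 higher and 0 lower on each slide. With FB1, 0 were higher on slides 1 and 2 and 1 and 0 lower, with medians of -0.065 on slide 1 and 0.46 on slide 3, and Cdc6 (-0.079) and Rpa2 (-0.11) were reversed on slide 1. For the difference, 0 were lower on slides 1 and 2, with medians of -0.060 on slide 1 and 0.64 on slide 3. Fewer arrays enter each of these fits.

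The 2 genes called lower without FB1 became 0 with no filter on dim probes, where more genes are tested, and 1 with the mean of a gene's probes, the slide block, the replicate block, only the groups compared or a 1.5-fold threshold. The 2 called lower with FB1 became 1 with quantile normalization, the authors' values, no filter, the replicate block, only the groups compared or the 1.5-fold threshold. The 10 called higher with FB1 became 6 with no filter, 6 with only the groups compared, 3 at 1.5-fold and 17 with array weights, which also gave 2 lower for the difference, adding Mcm10 (-0.87, adjusted p = 0.0438). The cause was not tested. Same-numbered mice of different groups did not deviate together, so the numbers were not taken as pairs. With the replicate block, FB1 calls higher were 12 in WT and 32 in KO mice and 8 were higher in KO than in WT mice with FB1. Of all calls, those higher were 40.2% for FB1 in KO mice, 44.3% for KO against WT with FB1 and 47.9% for the difference, and 45.2%, 50.6% and 52.4% with quantile normalization.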
